A study of Mus musculus with 20 samples.

Results

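The genes described here are 8 enzymes of nicotinamide adenine dinucleotide (NAD) and kynurenine metabolism: Cd38, Bst1, Nampt, Nmnat1, Nadk, Sirt1, Kynu and Kmo. They were taken by symbol from count tables that list 24421 genes, and each was found once. The set was chosen by its CPM in the 4 conditions, that is with the values of these same libraries known, so its levels and differences are given as a description, with no test. The data are RNA counts of bone marrow-derived macrophages, grown from 5 mice, each cultured under 4 conditions, which makes 20 libraries. All cells were grown in DMEM with Glutamax, 20% fetal serum and 30% medium conditioned by L929 fibroblasts, a source of the growth factor CSF-1, and were exposed to a formulation for 48 h. The conditions were LP 3M PIC (taken as the dual formulation), LP 3M and LP PIC (taken as the single ones) and LP (taken as the lipoparticle that the title names). Every condition contains LP, and no untreated cells are analysed here. The labels used here give neither the strain, age or sex of the mice nor the amount of each adjuvant, so setting the dual against a single formulation takes the amounts as equal.

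NAD carries electrons in metabolism and is also consumed as a substrate. Cells make it mainly by salvage, in which Nampt turns nicotinamide into nicotinamide mononucleotide and Nmnat1 turns that into NAD in the nucleus, while Nadk phosphorylates NAD to NADP. Cd38 and its relative Bst1 (CD157) are membrane enzymes that split NAD and make cyclic ADP-ribose, and Sirt1 is a deacetylase that uses NAD as a cosubstrate. A second supply starts from tryptophan: Ido1 and Ido2 open its ring, Kmo hydroxylates kynurenine, Kynu (kynureninase) cleaves kynurenine and its hydroxylated form, and Haao and Qprt lead on to NAD. In macrophages, Cd38 and Ido1 are known as genes induced during inflammatory activation.

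Stretches of the 250 bases before the RefSeq start site are shown for 2 of the genes, since Cd38 was nearly silent in LP libraries and Nampt was abundant in every library. Both come from RefSeq on GRCm38.p6 and are written 5′ to 3′ on the plus strand, with each CG dinucleotide in capitals. The Cd38 stretch lies at chr5:43868559-43868808 and the Nampt stretch at chr12:32820085-32820334. The GENCODE annotation used for gene positions below starts both genes earlier, so that both stretches lie inside its gene spans, downstream of its outermost starts.
Cd38: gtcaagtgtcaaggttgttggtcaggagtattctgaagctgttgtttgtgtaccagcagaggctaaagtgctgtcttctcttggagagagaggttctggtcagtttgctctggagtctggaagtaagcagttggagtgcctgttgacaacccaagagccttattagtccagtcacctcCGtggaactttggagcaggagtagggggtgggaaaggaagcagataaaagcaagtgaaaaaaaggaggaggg
Nampt: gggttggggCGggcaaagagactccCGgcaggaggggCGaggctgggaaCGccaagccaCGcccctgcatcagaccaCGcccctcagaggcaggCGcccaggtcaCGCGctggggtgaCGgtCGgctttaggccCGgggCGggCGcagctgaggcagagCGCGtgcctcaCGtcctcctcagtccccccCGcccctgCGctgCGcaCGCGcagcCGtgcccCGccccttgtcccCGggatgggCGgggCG

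The Cd38 stretch held 1 CG dinucleotide at a GC content of 48.8%, and the Nampt stretch held 27 at 75.6%. The median over 32851 such stretches of 27025 genes was 6 CG dinucleotides and a GC content of 52.4%. Sirt1 had 39 at 79.2%, and Nmnat1 had 24 and 23 at its 2 listed start sites, while Nadk had 4 and 18 and Kmo had 5. Bst1 and Kynu were not matched. Both strands of the 8 matched stretches were searched for an NF-kB consensus, the ISRE core (GAAA, any 2 bases, GAAA), the GAS core TTCNNNGAA and the AP-1 core TGANTCA. None of the 8 held a match, and in all such stretches the shares with a match were 7.25% for NF-kB, 2.98% for ISRE, 7.02% for GAS and 6.75% for AP-1. These letters say nothing about sites outside the stretches or about the binding of any factor.

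In the GENCODE M21 annotation of GRCm38, Cd38 spans chr5:43868553-43912375 in 8 exon blocks and Bst1 spans chr5:43818885-43843986, both on the plus strand. They are neighbours, 24.6 kb apart with no annotated gene between them. Nampt lies at chr12:32819545-32853349, Nmnat1 at chr4:149467572-149485202 on the minus strand and Nadk at chr4:155562378-155591001. Sirt1 lies at chr10:63319005-63381704 on the minus strand, Kynu at chr2:43555329-43682715 and Kmo at chr1:175620381-175662116. Bst1 shares 98 exon bases with Fbxl5 and Sirt1 shares 65 with the antisense gene Gm16145, each on the opposite strand, and how the counting used strand is not given in the sources used here.

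The libraries held 9.74 to 23.9 M gene counts. Levels are given as CPM, a count divided by the library's gene counts in M (the unit of these totals), and 3 counts, used here as a detection floor, correspond to 0.126 to 0.308 CPM depending on the library. The cells matched their label: all 8 macrophage markers (among them Adgre1, Csf1r and Cd68) were detected, with a summed level of 12130 to 16934 CPM in LP 3M PIC, 21415 to 26958 CPM in LP 3M, 13679 to 19908 CPM in LP PIC and 11350 to 18848 CPM in LP. Of the 9 neutrophil markers in the tables, Retnlg was at 0 in all libraries, S100a9, Mpo, Elane, Ngp and Cxcr2 stayed below 1 CPM and Camp reached 2.05 CPM, but the summed list, mostly Lcn2 and S100a8, ran from 203 to 3810 CPM in LP 3M PIC, 73.0 to 609 CPM in LP 3M, 14.8 to 70.1 CPM in LP PIC and 2.05 to 10.4 CPM in LP. The T cell list, mostly Cd28, summed to 11.0 to 25.4 CPM in LP 3M PIC, 29.6 to 50.1 CPM in LP 3M, 24.7 to 65.2 CPM in LP PIC and 63.5 to 115 CPM in LP, with Cd3e, Cd3g and Cd8a at 0. Pax5 (B cells) and Ncr1 and Prf1 (NK cells) were at 0. The 4 mast cell markers, mostly Kit with Cpa3 and Fcer1a at 0, summed to 0.418 to 1.75 CPM in LP 3M PIC, 0.335 to 1.51 CPM in LP 3M, 1.5 to 5.70 CPM in LP PIC and 1.65 to 5.09 CPM in LP. For dendritic cells, all 6 markers were below 1 CPM, and erythroid markers summed to at most 0.411 CPM. Stromal markers summed to between 15.8 and 110 CPM and endothelial markers, mostly Kdr, to between 17.6 and 155 CPM, and their part in the results was not tested. In bulk RNA, more cells that express a gene and more RNA per cell cannot be told apart. The LP 3M library of mouse 5 stood apart: the inflammatory cytokine gene Il1b was at 3.58 CPM, against 70.9 to 310 CPM in the other LP 3M libraries, and Il6 at 0.436 CPM, against 6.62 to 36.9 CPM, so results that use it are also given without it where they move. Mouse 5 was also the lowest in these genes in the other conditions with an adjuvant. In LP 3M PIC, its Il1b was at 119 CPM, against 572 to 1994, and Il6 at 72.1 CPM, against 223 to 351. In LP PIC, its Il1b was at 1.67 CPM, against 3.66 to 8.59, and Il6 at 0.230 CPM, against 0.657 to 0.804. Leaving out the LP 3M library alone keeps mouse 5 in the other conditions.

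Per kilobase of exon, Nadk and Nampt were the most abundant of the 8 genes in every condition. In LP 3M PIC, mean levels per kilobase ran in the order Nadk (92.7 CPM per kb), Nampt (73.9), Cd38 (48.1), Bst1 (15.9), Sirt1 (3.02), Nmnat1 (2.43), Kynu (0.394) and Kmo (0.0160). In LP, the order was Nadk (48.5 CPM per kb), Nampt (29.1), Bst1 (5.03), Sirt1 (3.71), Nmnat1 (1.93), Kynu (0.125), Cd38 (0.0221) and Kmo (0.0208). Cd38 thus followed Nadk and Nampt in LP 3M PIC and was level with Kmo, within their spread, in LP. In LP 3M PIC, the levels per kilobase of Cd38 (SD 31.1, n = 5) and Nampt (SD 12.1) lay within their spread of each other, and those of Sirt1 (SD 0.169) and Nmnat1 (SD 0.262) differed by more than theirs.

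**Figure D1:**
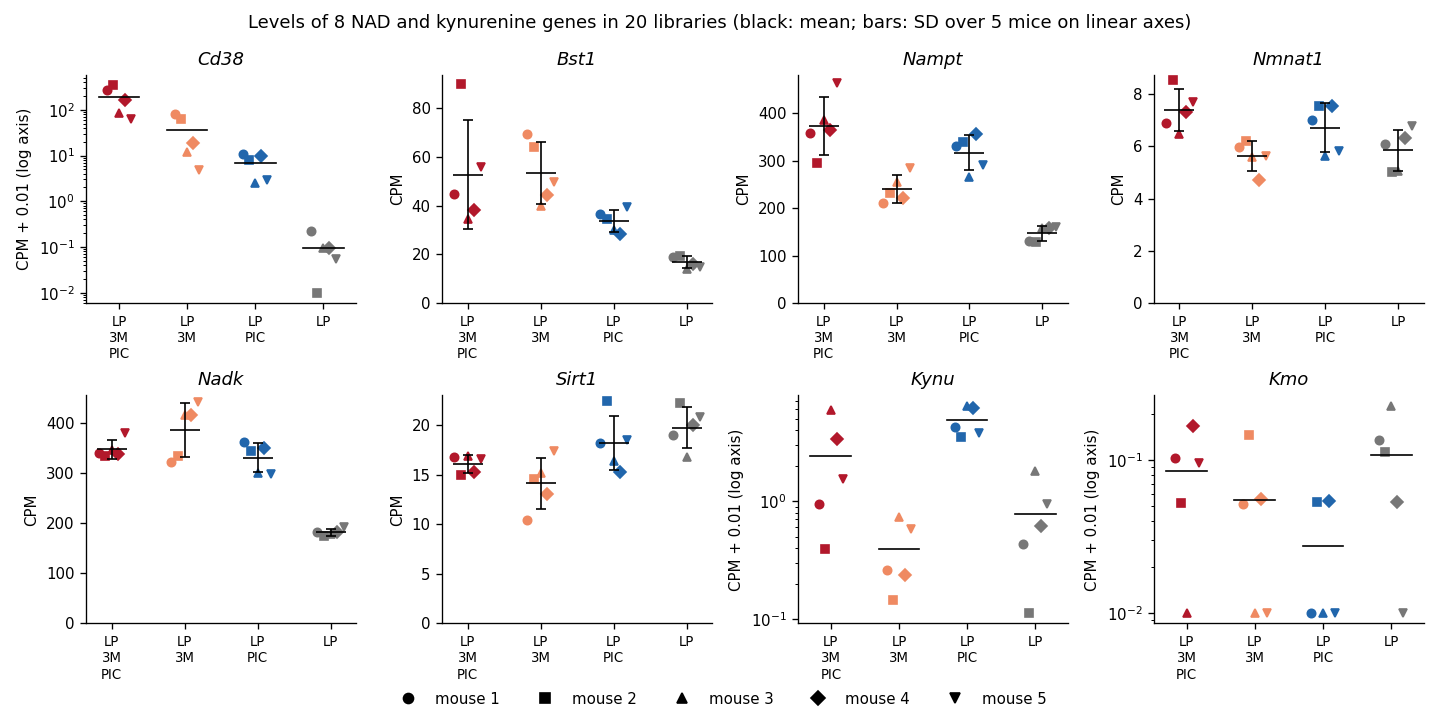
Levels of the 8 genes in CPM for each library, in the order LP 3M PIC, LP 3M, LP PIC and LP, with a symbol per mouse and a black line at the mean of 5 mice. Bars are the SD on linear axes, and Cd38, Kynu and Kmo are drawn on log axes with 0.01 CPM added. Cd38 falls into steps of 187, 35.9, 6.75 and 0.0858 CPM from left to right, while Nadk averages 347, 386 and 331 CPM with an adjuvant and 182 CPM in LP.

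Cd38 was the gene of the set with the widest range. It was scarcely detected in LP and was highest in LP 3M PIC, next in LP 3M and lower again in LP PIC. Over mice 1 to 5, LP 3M PIC libraries had 274, 346, 85.8, 167 and 64.0 CPM of Cd38. LP 3M libraries had 80.4, 64.0, 11.7, 18.8 and 4.71 CPM, and LP PIC libraries had 10.7, 7.82, 2.50, 9.84 and 2.94 CPM. LP libraries had 5, 0, 2, 2 and 1 counts, at most 0.210 CPM, so that 4 of 5 were at or under the floor of 3 counts. Each formulation with an adjuvant was above every LP library, LP 3M PIC was above every LP PIC library, and LP 3M PIC and LP 3M overlapped only through different mice, since each mouse had more Cd38 in LP 3M PIC than in LP 3M. Mean levels were 187 ± 121 CPM in LP 3M PIC, 35.9 ± 34.0 CPM in LP 3M, 6.75 ± 3.83 CPM in LP PIC and 0.0858 ± 0.0783 CPM in LP (SD, n = 5).

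Differences were taken within each mouse on the log2 scale with a prior count of 2, which draws differences of scarce genes toward 0. The within-mouse log2 difference of Cd38 was 9.85 ± 1.21 for LP 3M PIC against LP, 7.06 ± 1.69 for LP 3M against LP and 5.12 ± 1.02 for LP PIC against LP (mean and SD, 5 of 5 mice higher each time). With a prior count of 0.5 these means were 10.81, 8.02 and 6.06. As ratios of summed counts per total, the sums of 19746, 4107 and 764 counts against 10 counts in LP correspond to 2010-fold (95% counting interval 1093 to 4193), 371-fold (201 to 774) and 70.9-fold (38.4 to 149). Against the single formulations, Cd38 in LP 3M PIC was higher by 4.73 ± 0.54 relative to LP PIC and by 2.79 ± 0.74 relative to LP 3M on the log2 scale, in 5 of 5 mice. On summed counts, another measure, the ratios were 28.3-fold (95% counting interval 26.4 to 30.5) and 5.42-fold (5.24 to 5.61). These intervals leave out the spread over mice. Single mice ran from 16.8-fold to 43.7-fold relative to LP PIC and from 3.40-fold to 13.3-fold relative to LP 3M. The 13.3-fold was that of mouse 5, and without its LP 3M library the highest was 8.82-fold. On the log2 scale, adding PIC thus came with a smaller difference in the presence of 3M than in its absence. The difference of differences was -2.33 ± 1.44, below 0 in 5 of 5 mice, and -3.27 with a prior count of 0.5. It depends on the 10 counts summed over the LP libraries, and the interaction test given below did not call Cd38. In CPM, mean levels were 187 in LP 3M PIC, 35.9 in LP 3M and 6.75 in LP PIC. Each mouse had more Cd38 in LP 3M PIC than in LP 3M and LP PIC together. Without the LP 3M library of mouse 5, the mean for LP 3M against LP was 7.55, that for LP 3M PIC against LP 3M was 2.55 and the difference of differences was -2.74.

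Mice differed widely in Cd38. The highest mouse had 5.40 times the level of the lowest in LP 3M PIC, 17.1 times in LP 3M, or 6.86 times without the library of mouse 5, and 4.27 times in LP PIC. Mice 1 and 2 were the highest and mouse 5 the lowest in both LP 3M PIC and LP 3M, whereas mouse 3 was the lowest in LP PIC. Lcn2, the main contributor to the neutrophil list, ordered the mice as Cd38 did in these conditions: it had 1869, 3273, 358, 1000 and 192 CPM in LP 3M PIC, and 592, 316, 157, 179 and 65.2 CPM in LP 3M, over mice 1 to 5. Il1b also followed that order, with 1189, 1994, 572, 1180 and 119 CPM in LP 3M PIC and 310, 155, 70.9, 73.5 and 3.58 CPM in LP 3M. In LP PIC the orders differed, as Lcn2 had 18.7, 11.8, 33.6, 65.1 and 59.2 CPM and mouse 1, highest in Cd38, was not highest in Lcn2. S100a8, another gene of the neutrophil list, had 99.5, 536, 3.35, 18.6 and 8.16 CPM in LP 3M PIC, and 3.18 to 16.1 CPM in LP 3M. These are descriptions over 5 mice, and the part of the neutrophil list in the Cd38 levels was not tested. The animal codes in the labels begin with a letter for mice 1, 2 and 5 and are digits only for the others. What the codes stand for is not given, so a batch of mice cannot be told apart from the mice themselves.

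**Figure D2:**
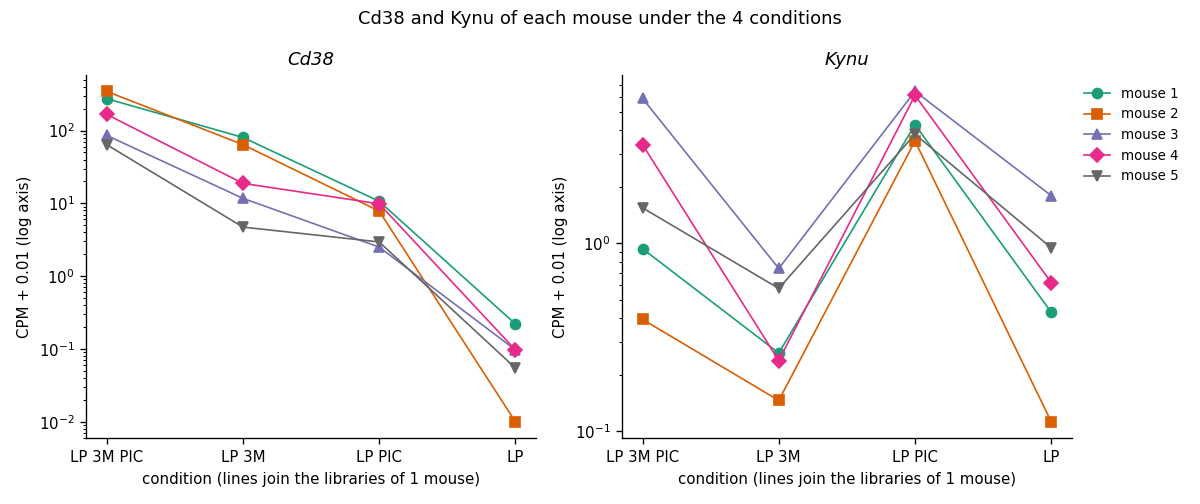
Levels of Cd38 (left) and Kynu (right) in CPM with 0.01 added, on log axes, for each condition, with lines that join the 4 libraries of 1 mouse. Cd38 lines run down from LP 3M PIC through LP 3M and LP PIC to LP in 5 of 5 mice, with the smallest step from LP 3M to LP PIC in mouse 5 (4.71 and 2.94 CPM). Kynu is lowest in LP 3M for 4 of 5 mice, and mouse 3 is highest and mouse 2 lowest in every condition.

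Bst1, the neighbour and relative of Cd38, was detected at moderate levels in every library and spanned a far narrower range. LP 3M PIC libraries had 44.6, 90.0, 34.4, 38.4 and 55.9 CPM, LP 3M libraries 69.6, 64.2, 40.0, 44.2 and 49.9 CPM, and LP PIC libraries 36.8, 34.5, 30.1, 28.3 and 39.5 CPM. LP libraries had 19.1, 19.5, 14.1, 16.0 and 14.8 CPM. All libraries with an adjuvant were above all LP libraries, and the formulations with an adjuvant overlapped one another except that LP 3M lay above LP PIC in every library. The within-mouse log2 difference from LP was 1.58 ± 0.45 in LP 3M PIC, 1.66 ± 0.17 in LP 3M and 1.02 ± 0.25 in LP PIC, in 5 of 5 mice. LP 3M PIC was higher than LP PIC by 0.56 ± 0.48 in 5 of 5 mice and differed from LP 3M by -0.08 ± 0.43, with 2 mice higher and 3 lower. The difference of differences was -1.10 ± 0.47, below 0 in 5 of 5 mice. Bst1 thus stood at 52.7 ± 22.4 CPM in LP 3M PIC and 53.6 ± 12.8 CPM in LP 3M (SD, n = 5), whereas Cd38 differed 5.42-fold between these conditions on summed counts.

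Nampt, the enzyme of nicotinamide salvage, was higher with every adjuvant. LP 3M PIC libraries had 358, 295, 385, 364 and 465 CPM, LP 3M libraries 211, 232, 255, 222 and 284 CPM, and LP PIC libraries 331, 339, 267, 357 and 292 CPM. LP libraries had 131, 129, 159, 158 and 159 CPM. LP libraries lay below all others, and every LP 3M PIC library lay above every LP 3M library, while LP 3M PIC and LP PIC overlapped. The within-mouse log2 difference from LP was 1.33 ± 0.16 in LP 3M PIC, 0.71 ± 0.14 in LP 3M and 1.11 ± 0.29 in LP PIC, higher in 5 of 5 mice each time. LP 3M PIC exceeded LP 3M by 0.63 ± 0.17 in 5 of 5 mice and LP PIC by 0.23 ± 0.36 in 4 of 5 mice. The difference of differences was -0.48 ± 0.37, below 0 in 5 of 5 mice.

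Nmnat1, which makes NAD in the nucleus, was low and changed little. LP 3M PIC libraries had 6.91, 8.55, 6.46, 7.32 and 7.69 CPM, LP 3M libraries 5.99, 6.22, 5.58, 4.70 and 5.62 CPM, LP PIC libraries 7.02, 7.56, 5.65, 7.54 and 5.82 CPM, and LP libraries 6.10, 5.03, 5.06, 6.31 and 6.79 CPM. Among the compared pairs, LP 3M PIC lay above every LP 3M library, by 0.39 ± 0.18 on the log2 scale in 5 of 5 mice, and the other pairs overlapped. Against LP, the log2 difference was 0.33 ± 0.25 in LP 3M PIC, higher in 5 of 5 mice, -0.05 ± 0.29 in LP 3M and 0.19 ± 0.28 in LP PIC. Plain library totals lowered the median log2 change of all tested genes, to -0.12 for LP 3M against LP, -0.10 for LP 3M PIC against LP and -0.04 for LP PIC against LP, where TMM scaling gave medians of -0.01, 0.02 and -0.00. With TMM-scaled library sizes the Nmnat1 differences were 0.44 in LP 3M PIC, 0.05 in LP 3M, where the sign turned, and 0.24 in LP PIC.

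Nadk, the cytosolic NAD kinase, had about the same level under all 3 formulations with an adjuvant. LP 3M PIC libraries had 339, 333, 347, 338 and 379 CPM, LP 3M libraries 323, 334, 415, 416 and 442 CPM, and LP PIC libraries 361, 344, 301, 349 and 298 CPM. LP libraries had 182, 175, 178, 182 and 192 CPM and none overlapped with the libraries of other conditions. The within-mouse log2 difference from LP was 0.93 ± 0.04 in LP 3M PIC, 1.08 ± 0.18 in LP 3M and 0.86 ± 0.16 in LP PIC. LP 3M PIC differed by 0.07 ± 0.19 from LP PIC and by -0.14 ± 0.17 from LP 3M, both smaller than the SD over mice. The difference of differences was -1.0 ± 0.15, below 0 in 5 of 5 mice, the narrowest spread of that measure among the 7 genes with a measured difference.

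Sirt1, the NAD-dependent deacetylase, was the only 1 of the 7 whose mean was lower than in LP under all 3 formulations. LP 3M PIC libraries had 16.8, 15, 16.9, 15.3 and 16.6 CPM, LP 3M libraries 10.5, 14.6, 15.2, 13.1 and 17.4 CPM, LP PIC libraries 18.2, 22.5, 16.4, 15.3 and 18.6 CPM, and LP libraries 19.0, 22.3, 16.8, 20.0 and 20.8 CPM. The groups overlapped in every comparison. Against LP the log2 difference was -0.29 ± 0.22 in LP 3M PIC (4 of 5 mice lower), -0.49 ± 0.29 in LP 3M (5 of 5) and -0.13 ± 0.16 in LP PIC (4 of 5). With TMM-scaled library sizes these means were -0.18, -0.38 and -0.08. The difference of differences was 0.33 ± 0.32 for Sirt1, above 0 in 5 of 5 mice, and 0.19 ± 0.32 for Nmnat1.

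**Figure D3:**
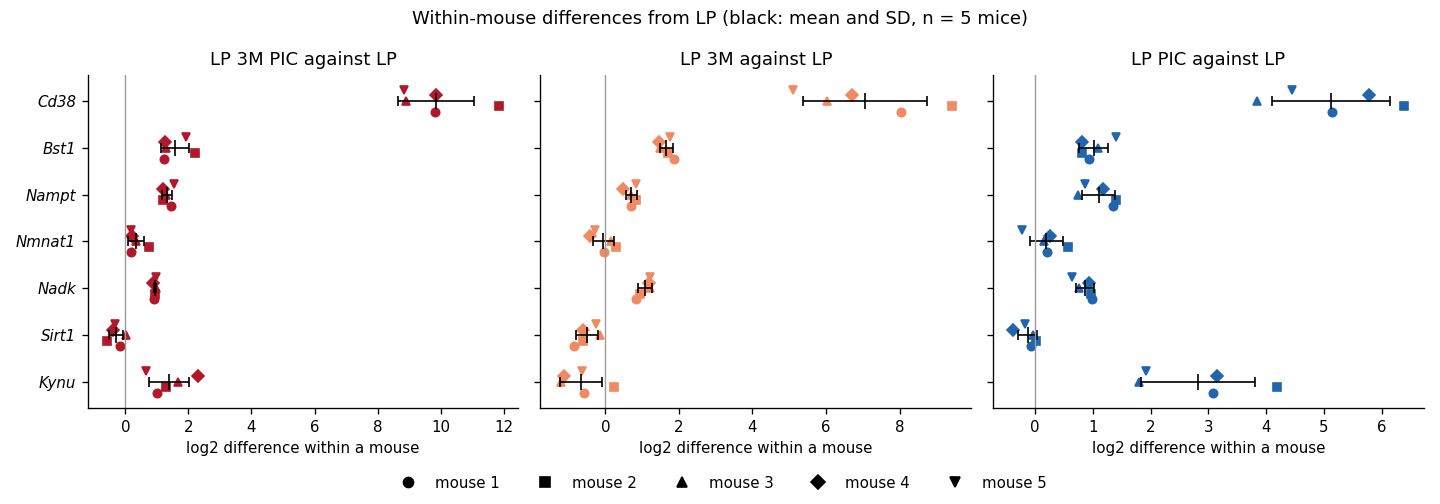
Within-mouse log2 differences from LP for 7 of the 8 genes in LP 3M PIC, LP 3M and LP PIC, with a symbol per mouse and the mean and SD of 5 mice in black, and with a horizontal scale of its own in each panel. Cd38 lies far to the right in each panel (means 9.85, 7.06 and 5.12), and Kynu changes side, at 1.38, -0.66 and 2.83.

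Kynu, the kynureninase, was the only 1 of the 7 genes with its highest mean in LP PIC. Its lowest mean was in LP 3M, as it was for Nmnat1 and Sirt1. LP 3M PIC libraries had 0.928, 0.385, 5.90, 3.35 and 1.54 CPM, LP 3M libraries 0.251, 0.136, 0.726, 0.228 and 0.567 CPM, and LP PIC libraries 4.27, 3.50, 6.44, 6.13 and 3.80 CPM. LP libraries had 0.421, 0.103, 1.79, 0.610 and 0.938 CPM, from 10, 1, 41, 14 and 21 counts. Every LP PIC library was above every LP library, and the groups of the other comparisons with LP overlapped. The within-mouse log2 difference from LP was 1.38 ± 0.63 in LP 3M PIC and 2.83 ± 0.99 in LP PIC, higher in 5 of 5 mice in both, and -0.66 ± 0.57 in LP 3M, lower in 4 of 5 mice. Kynu in LP 3M PIC was lower than in LP PIC by -1.45 ± 1.08 on that scale in 5 of 5 mice and higher than in LP 3M by 2.04 ± 1.04 in 5 of 5 mice. The difference of differences was -0.78 ± 1.63, above 0 in 2 mice and below 0 in 3. The highest mouse had 15.3 times the Kynu level of the lowest in LP 3M PIC, 5.33 times in LP 3M, 1.84 times in LP PIC and 17.4 times in LP, with mouse 3 the highest and mouse 2 the lowest in all 4 conditions.

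Kmo, the enzyme before Kynu on the route to NAD, was at or under the floor of 3 counts in 19 of 20 libraries. Its counts over mice 1 to 5 were 2, 1, 0, 3 and 2 in LP 3M PIC, 1, 3, 0, 1 and 0 in LP 3M, 0, 1, 0, 1 and 0 in LP PIC and 3, 1, 5, 1 and 0 in LP. The summed counts of 8, 5, 2 and 10 allow no statement on a difference, and the highest level was 0.218 CPM. It did not pass the filter on low counts, so 7 of the 8 genes entered the fit described next.

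All comparisons across genes used the quasi-likelihood F-test of edgeR on 12132 genes, with an adjusted p (Benjamini-Hochberg over all of them) under 0.05 for a call. For LP 3M PIC against LP it called 62.2% of all tested genes (31.7% higher, 30.6% lower) and 6 of the 7 enzymes, all higher. For LP 3M against LP it called 39.5% of all genes (20.0% higher, 19.5% lower) and 4 enzymes higher and Sirt1 lower. For LP PIC against LP it called 45.5% of all genes (22.7% higher, 22.7% lower) and 5 enzymes higher. For LP 3M PIC against LP PIC it called 44.5% (23.1% higher, 21.4% lower) and 3 enzymes higher, and for LP 3M PIC against LP 3M 41.5% (20.5% higher, 21.0% lower) and 4 enzymes higher. For the interaction, the difference of differences used above, it called 8.43% (3.82% higher, 4.62% lower) and Bst1, Nadk and Nampt lower. Since the genes were chosen with these contrasts known, nothing is read from those counts.

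The other genes of the same pathways were tested: 66 genes in 5 lists, of which 54 passed the filter. For LP 3M PIC against LP, 41 of the 54 (75.9%) were called, 23 higher and 18 lower, with a median log2 fold change of 0.19, against 0.02 over all tested genes. With plain library totals its 42 calls were 20 higher and 22 lower. For LP 3M against LP, 25 (46.3%) were called, 15 higher and 10 lower, with a median of -0.03 against -0.01, and with plain library totals the 26 calls were 11 higher and 15 lower. Leaving out mouse 1 brought that count down to 16. For LP PIC against LP, 27 (50.0%) were called, 20 higher and 7 lower, with a median of 0.19 against -0.00. For LP 3M PIC against LP PIC 22 were called (10 higher, 12 lower) and for LP 3M PIC against LP 3M 27 (20 higher, 7 lower). With plain library totals LP 3M PIC against LP PIC had 28 calls, 10 higher and 18 lower. In each comparison the share is to be set beside the share of all genes given above. Log2 fold changes below are from the edgeR fit with TMM scaling, with the SE that the F-test implies and its adjusted p.

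**Figure D4:**
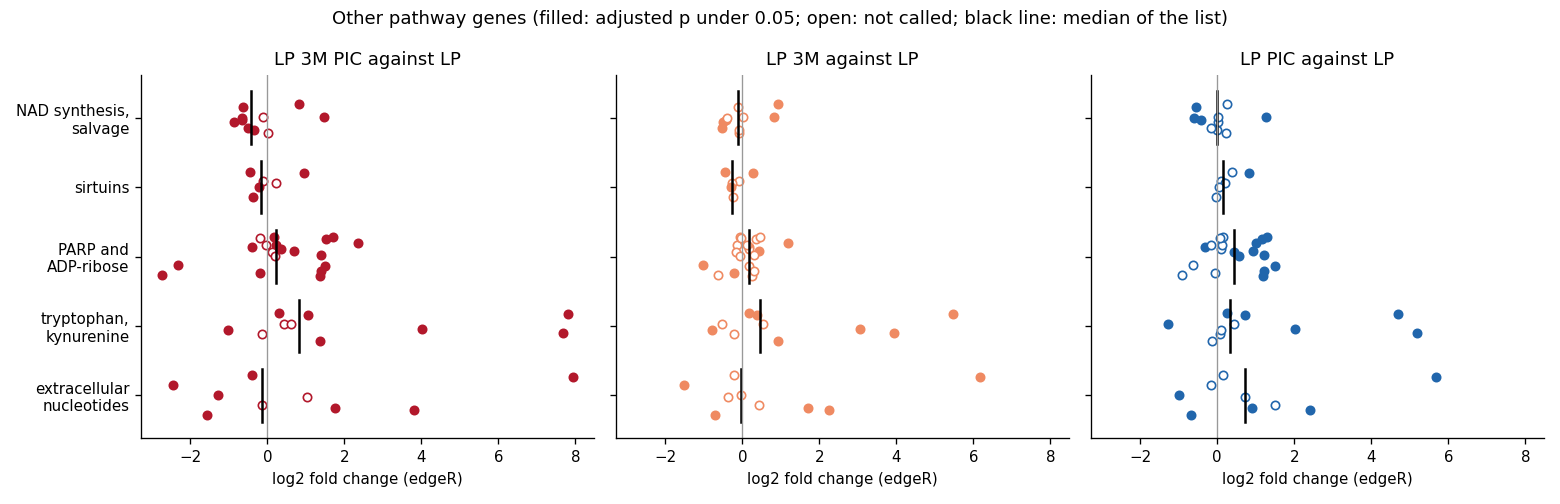
The edgeR log2 fold change of each tested pathway gene other than the 8, by list, for LP 3M PIC, LP 3M and LP PIC against LP, with filled circles for an adjusted p under 0.05 and a black line at the list's median. The 4 points beyond a log2 fold change of 4 in LP 3M PIC are Adora2a, Ido2, Ido1 and Ahr (7.94, 7.81, 7.68 and 4.01), and most sirtuin and NAD synthesis genes lie within 1 of zero.

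In the list of NAD synthesis, salvage and phosphorylation, 10 of 15 genes were tested. For LP 3M PIC 2 rose and 6 fell against LP, for LP 3M 2 rose and 3 fell, and for LP PIC 1 rose and 3 fell. The shares called were 80.0%, 50.0% and 40.0%, beside 62.2%, 39.5% and 45.5% of all tested genes. The list's median log2 fold change was -0.42 in LP 3M PIC, -0.10 in LP 3M and 0.01 in LP PIC, beside 0.02, -0.01 and -0.00 over all tested genes. Pnp, the purine nucleoside phosphorylase that releases nicotinamide from its riboside, rose in all 3: it had 312 ± 20.9 CPM in LP 3M PIC, 198 ± 35.8 CPM in LP 3M, 281 ± 63.9 CPM in LP PIC and 121 ± 26.1 CPM in LP (SD, n = 5). Its log2 fold change against LP was 1.48 ± 0.17 (adjusted p = 4.48e-07), 0.82 ± 0.17 (adjusted p = 0.000808) and 1.26 ± 0.17 (adjusted p = 7.47e-06) in the same order. Naprt and Nmrk1, at other entries to NAD synthesis, fell in the formulations with 3M. Naprt, an enzyme that converts nicotinic acid, fell to 2.99 ± 0.986 CPM in LP 3M PIC, against 5.88 ± 0.840 CPM in LP, by 0.87 ± 0.19 on the log2 scale (adjusted p = 0.000614). In LP 3M its change was -0.49 ± 0.19 (adjusted p = 0.0451), a call lost without a filter on low counts and without any of mice 1 to 4, and in LP PIC it was 0.02 (adjusted p = 0.941). Nmrk1, the nicotinamide riboside kinase, changed by -0.51 ± 0.13 in LP 3M PIC (adjusted p = 0.00229), -0.52 ± 0.13 in LP 3M (adjusted p = 0.00364) and -0.17 in LP PIC (adjusted p = 0.306).

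Nadk2, the mitochondrial NAD kinase, fell under all 3 formulations, where Nadk itself was higher. It had 7.05 ± 1.47 CPM in LP 3M PIC, 8.33 ± 0.775 CPM in LP 3M, 8.76 ± 0.763 CPM in LP PIC and 12.1 ± 1.48 CPM in LP, with changes of -0.67 ± 0.12 (adjusted p = 8.48e-05), -0.42 (adjusted p = 0.00827; 0.0578 without mouse 1) and -0.42 (adjusted p = 0.00791). Nnt, the mitochondrial transhydrogenase that passes electrons between NADH and NADPH, fell in the formulations with PIC, by 0.64 ± 0.10 in LP 3M PIC (adjusted p = 2.08e-05) and by 0.55 ± 0.10 in LP PIC (adjusted p = 0.000188), and its change in LP 3M was -0.11 (adjusted p = 0.41). Within LP 3M PIC it was also below LP 3M, with a change of -0.53 ± 0.10 (adjusted p = 0.000413). Nadsyn1, the last enzyme of the routes from nicotinic acid and tryptophan, did not pass the test, at 0.02, -0.08 and 0.23 in LP 3M PIC, LP 3M and LP PIC (adjusted p = 0.899, 0.639 and 0.144). Qprt, the enzyme that joins the kynurenine route to NAD, had summed counts of 2, 6, 3 and 1 in LP 3M PIC, LP 3M, LP PIC and LP, and Nnmt, which methylates nicotinamide, had 9, 5, 9 and 6, so that neither was tested.

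Among the 6 other sirtuins, Sirt6 was the only 1 called higher, and it rose under all 3 formulations. In LP 3M PIC 3 others fell and in LP 3M 2, and the median of the list was -0.15 in LP 3M PIC, -0.26 in LP 3M and 0.16 in LP PIC. The shares of the list called were 66.7%, 50.0% and 16.7%, beside 62.2%, 39.5% and 45.5% of all tested genes. Sirt6, a nuclear sirtuin, had 26.9 ± 2.94 CPM in LP 3M PIC, 16.9 ± 1.35 CPM in LP 3M, 25.7 ± 2.92 CPM in LP PIC and 15 ± 0.358 CPM in LP. Its log2 fold change was 0.96 ± 0.08 (adjusted p = 1.5e-08), 0.28 ± 0.08 (adjusted p = 0.0131) and 0.82 ± 0.08 (adjusted p = 2.38e-07), of which the LP 3M call was lost with plain library totals (adjusted p = 0.117) and without mouse 1 (adjusted p = 0.0529). Sirt7, a nucleolar sirtuin, fell by 0.20 ± 0.06 in LP 3M PIC (adjusted p = 0.00462) and by 0.30 ± 0.06 in LP 3M (adjusted p = 0.000475), and its change in LP PIC was 0.06 (adjusted p = 0.433). Sirt3, a mitochondrial deacetylase, changed by -0.45 ± 0.17 in LP 3M PIC (adjusted p = 0.0251) and -0.46 in LP 3M (adjusted p = 0.0364), and by 0.38 in LP PIC (adjusted p = 0.0662; 0.025 with the mouse as a block and 0.0445 without mouse 5). Sirt5, another mitochondrial member, changed by -0.38 ± 0.15 in LP 3M PIC (adjusted p = 0.0367). The calls of Sirt3 and Sirt5 were lost when 1 of several mice was left out, with adjusted p up to 0.198 for Sirt3 in LP 3M and 0.115 for Sirt5.

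The PARP family, enzymes that transfer ADP-ribose from NAD to proteins, was the longest list. Of its 19 tested genes, 11 rose and 4 fell for LP 3M PIC against LP, 3 rose and 2 fell for LP 3M, and 10 rose and 1 fell for LP PIC. These calls were 78.9%, 26.3% and 57.9% of the list, beside 62.2%, 39.5% and 45.5% of all tested genes. The list's median was 0.24 in LP 3M PIC, 0.16 in LP 3M and 0.45 in LP PIC. Parp14, which adds single ADP-ribose units, had 618 ± 91.2 CPM in LP 3M PIC, 262 ± 111 CPM in LP 3M, 484 ± 88.0 CPM in LP PIC and 203 ± 68.7 CPM in LP. Its log2 fold change was 1.71 ± 0.27 in LP 3M PIC (adjusted p = 1.97e-05), 0.47 in LP 3M (adjusted p = 0.16; 0.0263 with the mouse as a block) and 1.29 ± 0.26 in LP PIC (adjusted p = 0.000596). Parp10 and Parp11, of the same kind, rose by 1.39 ± 0.18 and 1.49 ± 0.23 in LP 3M PIC (adjusted p = 2.07e-06 and 1.97e-05) and by 1.23 ± 0.18 and 1.51 ± 0.23 in LP PIC (adjusted p = 2.02e-05 and 3.72e-05). In LP 3M their changes were 0.32 (adjusted p = 0.165; 0.0498 with the mouse as a block) and 0.17 (adjusted p = 0.597).

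Tiparp, a PARP that is a known target of the aryl hydrocarbon receptor, rose under all 3 formulations, to 141 ± 26.9 CPM in LP 3M PIC, 63.0 ± 18.8 CPM in LP 3M and 59.0 ± 14.7 CPM in LP PIC, against 30.2 ± 3.91 CPM in LP. Its log2 fold changes were 2.35 ± 0.20 (adjusted p = 1.64e-08), 1.18 ± 0.20 (adjusted p = 0.000138) and 1.01 ± 0.20 (adjusted p = 0.000389). Parp1, the main DNA damage-responsive PARP, went the other way under PIC, by -0.41 ± 0.07 in LP 3M PIC (adjusted p = 3.4e-05) and -0.33 ± 0.07 in LP PIC (adjusted p = 0.000596). In LP 3M its change was 0.18 ± 0.07 (adjusted p = 0.0377, 4 of 5 mice higher), a call lost with plain library totals, with DESeq2 size factors, without a filter on low counts and without any 1 mouse (adjusted p up to 0.379 over these). Parp2 changed by -0.19 in LP 3M PIC (adjusted p = 0.0425) and -0.23 in LP 3M (adjusted p = 0.0312), and both calls were lost when 1 of several mice was left out. Macrod1, which removes ADP-ribose, fell to 1.88 ± 0.987 CPM in LP 3M PIC and 4.59 ± 2.04 CPM in LP 3M, against 9.98 ± 1.57 CPM in LP. Its changes were -2.31 ± 0.33 (adjusted p = 5.39e-06), -1.02 ± 0.30 (adjusted p = 0.0119; 0.0668 without mouse 3) and, in LP PIC, -0.62 (adjusted p = 0.0967; 0.009 with the mouse as a block and 0.014 without mouse 5).

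In the list of tryptophan and kynurenine genes, 10 of 15 were tested, 2 of the list under older symbols. For LP 3M PIC and for LP 3M 6 rose and 1 fell against LP, and for LP PIC 5 rose and 1 fell, with medians of 0.84, 0.47 and 0.34. These calls were 70.0%, 70.0% and 60.0% of the tested list, beside 62.2%, 39.5% and 45.5% of all tested genes. The first step of the route was nearly silent in LP: Ido1 had 1 count over the 5 LP libraries and Ido2 had 6. Ido1 had 1.58 to 4.92 CPM in LP 3M PIC, 0 to 0.419 CPM in LP 3M and 0.115 to 1.10 CPM in LP PIC. On summed counts, Ido1 was 287-fold (51.1 to 11379), 22.6-fold (3.70 to 927) and 58.5-fold (10.1 to 2347) above LP in these conditions, with adjusted p of 6.4e-07, 0.0132 and 0.000505 in the edgeR fit. In LP 3M it was higher in 4 of 5 mice, and the call was lost without mouse 1 or 2 (adjusted p = 0.0633 and 0.0534). Ido2 had 13.5 ± 5.18 CPM in LP 3M PIC, 2.65 ± 1.77 CPM in LP 3M, 1.62 ± 1.03 CPM in LP PIC and 0.0632 ± 0.0593 CPM in LP. Its summed counts were 225-fold (103 to 613), 45.3-fold (20.6 to 124) and 28.3-fold (12.8 to 78.2) above LP, with adjusted p of 9.11e-08, 4.6e-05 and 0.000209. Both genes were also higher in LP 3M PIC than in LP PIC, with log2 fold changes of 2.48 (adjusted p = 0.00116) for Ido1 and 3.12 (adjusted p = 0.000103) for Ido2, and than in LP 3M, with 3.74 (adjusted p = 8.59e-05) and 2.34 (adjusted p = 0.000933).

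Further along the route the order of the conditions was another. Afmid, the formamidase between the first step and Kmo, given outside the naming rule to complete the route, did not pass the test, at -0.15, -0.22 and 0.08 in LP 3M PIC, LP 3M and LP PIC (adjusted p = 0.542, 0.401 and 0.783). Kmo was at the floor and Kynu was highest in LP PIC, as given above. Haao, the dioxygenase after Kynu, had no count in LP 3M PIC, 5 counts in LP 3M, 4 in LP PIC and 56 in LP, where it averaged 0.557 ± 0.149 CPM. Haao did not pass the filter, and without a filter its adjusted p against LP was 2.76e-05 in LP 3M PIC, 0.00123 in LP 3M and 0.00057 in LP PIC. Tdo2, the liver-type tryptophan dioxygenase, had 1 count over all 20 libraries. Ccbl1 (Kyat1), which turns kynurenine into kynurenic acid, fell by 1.03 ± 0.21 in LP 3M PIC (adjusted p = 0.000342) and by 0.79 ± 0.21 in LP 3M (adjusted p = 0.00552), and its change in LP PIC was 0.11 (adjusted p = 0.683).

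**Figure D5:**
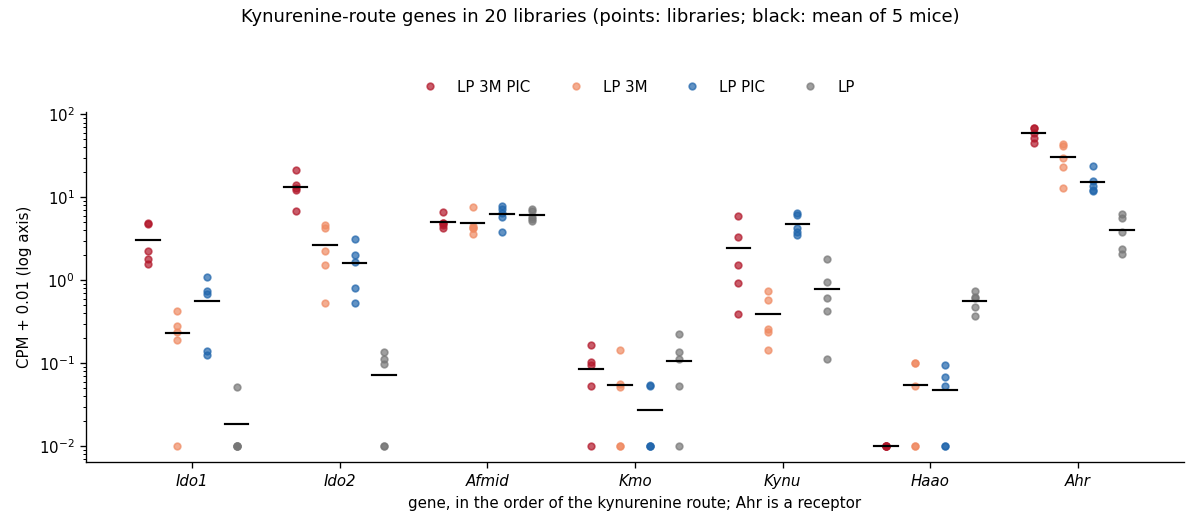
Levels in CPM with 0.01 added, on a log axis, of 6 genes in the order of the kynurenine route and of the receptor gene Ahr, with 1 point per library and a black line at the mean of 5 mice. Ido1, Ido2 and Ahr are highest in LP 3M PIC (means 3.06, 13.5 and 59.0 CPM), Kynu is highest in LP PIC (4.83 CPM), Haao is highest in LP (0.557 CPM) and Kmo lies near the floor in all conditions.

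Of the transport and receptor genes, Slc3a2 and Ahr rose under all 3 formulations. Slc7a5 and Slc3a2 are the subunits of the exchanger that carries tryptophan and kynurenine. Slc3a2 changed by 1.06 ± 0.10 in LP 3M PIC (adjusted p = 3.33e-08), 0.39 in LP 3M (adjusted p = 0.00436; 0.0596 without mouse 1) and 0.73 in LP PIC (adjusted p = 8.9e-06). Slc7a5 rose to 29.1 ± 6.50 CPM in LP 3M PIC and 21.7 ± 5.23 CPM in LP 3M, against 12.2 ± 1.75 CPM in LP, by 1.36 ± 0.17 (adjusted p = 1.12e-06) and 0.93 ± 0.17 (adjusted p = 0.000255). In LP PIC it had 10.9 ± 0.474 CPM, a change of -0.13 (adjusted p = 0.56), and LP 3M PIC was above LP PIC by 1.49 ± 0.17 (adjusted p = 2.71e-06). Wars, the tryptophanyl-tRNA synthetase, rose slightly, by 0.29 in LP 3M PIC (adjusted p = 0.000189) and 0.26 in LP PIC (adjusted p = 0.00111), while its call in LP 3M, at 0.18 (adjusted p = 0.0203), was lost with plain library totals (adjusted p = 0.3), without a filter on low counts (0.055) and without mouse 1, 2 or 5 (0.137, 0.079 and 0.0586). Ahr, the aryl hydrocarbon receptor that binds kynurenine, had 59.0 ± 10.6 CPM in LP 3M PIC, 30.3 ± 13.0 CPM in LP 3M, 15.5 ± 4.80 CPM in LP PIC and 4.05 ± 1.91 CPM in LP. Its log2 fold changes were 4.01 ± 0.36 (adjusted p = 2.41e-08), 3.06 ± 0.35 (adjusted p = 2.51e-06) and 2.01 ± 0.34 (adjusted p = 0.00011). Gpr35, an orphan-class receptor that kynurenic acid can activate, had 2.43 ± 1.92 CPM in LP 3M PIC, 1.12 ± 0.366 CPM in LP 3M, 0.71 ± 0.299 CPM in LP PIC and 1.77 ± 0.497 CPM in LP. Its change in LP PIC was -1.27 ± 0.47 (adjusted p = 0.0352), and leaving out mouse 3, 4 or 5 gave adjusted p of 0.0578, 0.167 and 0.0679. It was higher in LP 3M PIC than in LP PIC by 1.87 ± 0.47 (adjusted p = 0.00326).

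Of 9 tested genes of extracellular nucleotide and ADP-ribose handling, Adora2a, Adora2b and Trpm2 rose against LP under all 3 formulations, and 4 fell for LP 3M PIC, 2 for LP 3M and 2 for LP PIC, with medians of -0.14, -0.03 and 0.73. The shares called were 77.8%, 55.6% and 55.6%, beside 62.2%, 39.5% and 45.5% of all tested genes. Adora2a, an adenosine receptor, had 74.9 ± 20.9 CPM in LP 3M PIC, 21.8 ± 7.45 CPM in LP 3M, 16.3 ± 5.50 CPM in LP PIC and 0.298 ± 0.207 CPM in LP. Its log2 fold changes were 7.94 ± 0.44 (adjusted p = 7.67e-11), 6.17 ± 0.43 (adjusted p = 6.28e-09) and 5.68 ± 0.43 (adjusted p = 1.04e-08). Adora2b, a second adenosine receptor, rose by 3.82 ± 0.24 (adjusted p = 2.17e-10), 2.26 ± 0.23 (adjusted p = 6.85e-07) and 2.41 ± 0.23 (adjusted p = 1.28e-07). Trpm2, a cation channel opened by ADP-ribose, a product of Cd38, had 23.9 ± 5.69 CPM in LP 3M PIC, 23.0 ± 4.54 CPM in LP 3M, 14.0 ± 3.58 CPM in LP PIC and 7.56 ± 1.59 CPM in LP. Its changes were 1.75 ± 0.22 (adjusted p = 1.23e-06), 1.69 ± 0.22 (adjusted p = 7.68e-06) and 0.92 ± 0.22 (adjusted p = 0.00192). Of the enzymes that degrade nucleotides and adenosine, Entpd1 (CD39), which degrades ATP and ADP, had 15.9 ± 11.5 CPM in LP 3M PIC, 30.3 ± 5.13 CPM in LP 3M, 80.2 ± 18.7 CPM in LP PIC and 91.8 ± 27.5 CPM in LP. It changed by -2.44 ± 0.35 (adjusted p = 8.44e-06), -1.50 ± 0.34 (adjusted p = 0.00179) and -0.16 (adjusted p = 0.711). Ada, adenosine deaminase, fell by 1.28 ± 0.19 in LP 3M PIC (adjusted p = 1.1e-05) and by 0.98 ± 0.19 in LP PIC (adjusted p = 0.00029), with -0.03 in LP 3M (adjusted p = 0.926).

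For the interaction, 3 of the 54 pathway genes were called (5.56%, against 8.43% of all tested genes), and with the mouse as a block 5 were called. Adora2a was at -3.91 ± 0.54 (adjusted p = 0.000242) and Parp3, an ADP-ribosyltransferase named here after its value was seen, at -0.64 ± 0.18 (adjusted p = 0.0354), both below the sum of the single effects on the log2 scale. Gpr35 was above that sum, at 2.41 ± 0.65 (adjusted p = 0.028), a call lost without mouse 1, 2 or 4. On summed counts, Adora2a in LP 3M PIC was still 4.35 times its level in LP PIC and 3.30 times that in LP 3M. Its log2 differences from LP rest on 33 counts summed over the LP libraries. Trpm2 (adjusted p = 0.083) and Ahr (adjusted p = 0.165) were called with the mouse as a block, with adjusted p of 0.00361 and 0.0243, and Trpm2 also without mouse 2 (adjusted p = 0.023) and by DESeq2 (adjusted p = 0.0462). Adora2b was called without the LP 3M library of mouse 5, at -0.99 (adjusted p = 0.0315).

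The genes whose pattern was most like that of Cd38, Bst1, Nampt and Kynu were taken as those with the smallest root mean square difference over the 15 within-mouse log2 differences from LP. For Cd38 they were Cxcl3 (0.77), Saa3 (0.99) and Il1a (1.20), which encode a chemokine, an acute-phase protein and a cytokine. Cxcl3, the nearest, had mean levels of 171 CPM in LP 3M PIC, 48.8 CPM in LP 3M, 4.83 CPM in LP PIC and 0.0638 CPM in LP. For Bst1 they were Il1rl2 (0.31), Slc39a4 (0.33) and Procr (0.37), and for Nampt Mocs1 (0.19), Nfkbib (0.20) and Tnfaip2 (0.22). For Kynu the distances were larger than for Bst1 and Nampt, with AA467197 (0.81), Tnfsf10 (0.83) and Tnfsf13b (0.84) nearest. AA467197 had 36.0 CPM in LP 3M PIC, 9.75 CPM in LP 3M, 50.0 CPM in LP PIC and 11.1 CPM in LP, so that it shared the order of LP PIC above LP 3M PIC above LP above LP 3M with Kynu. Kmo was too scarce for this measure.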

How the data were processed

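RNA of 20 libraries was made with a stranded poly(A) kit after NucleoSpin extraction, per the labels' protocols. The authors deposited raw counts per gene symbol, in a table for each library. HTSeq 0.13.5, STAR 2.7.11b, DESeq2 1.44.0, FastQC 0.11.1 and build GRCm38 are named in the submitters' processing notes, with annotation and strand setting not given in the sources used here. The 5 entries without a gene (no feature 5.94 to 8.58%, ambiguous 1.14 to 1.90%) stayed out of totals and tests. CPM of genes use plain library totals.

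The genes, lists and tests were chosen with earlier results of these data known. Pathway genes were named by a fixed rule: for each list and comparison with LP, the 3 called genes with the largest change at 5 CPM or more and the same direction in 5 of 5 mice, the best called gene against the list's direction, and 11 genes always described. In R 4.3.3, edgeR 4.0.16 (filterByExpr, TMM factors 0.945 to 1.07, robust quasi-likelihood F-test, two-sided, 1 mean per condition) kept 12132 genes holding 99.969% of counts and was tested on simulated counts. The alternatives were the mouse as a block, other scalings, no filter, DESeq2 1.42.0, a prior count of 0.5 and leaving out each mouse or the LP 3M library of mouse 5. Labels give the same mouse for each replicate number. Deviations from the condition means correlated at 0.178 to 0.616 within a mouse (30 pairs, median 0.446) and -0.477 to 0.476 between mice (120 pairs, median -0.201). The main fit did not use this pairing, which entered only with the mouse as a block. No libraries were duplicates (chi-squared per degree of freedom 7.43 to 536 over 190 pairs). The p-values of the main fit measure the spread over mice within conditions, not the spread of within-mouse differences. Counting intervals cover counting error only.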

Additional observations from a re-analysis of the deposited data

Results flagged for a closer look

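Within groups of 5 libraries, a library far from the other 4 was found in 4 of 149 groups examined, where chance gives about 1 in 20. Nadk2 in LP had 14.7 CPM in mouse 2, against 11.1 to 12.0 CPM in the others. Naprt in LP 3M PIC had 4.70 CPM in mouse 5, against 2.14 to 2.74 CPM. Parp2 in LP 3M PIC had 23.2 CPM in mouse 2, against 29.3 to 31.6 CPM. Qprt in LP 3M had 0.228 CPM in mouse 4, against 0 to 0.0454 CPM, all near the detection floor.

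The effect of PIC differed with and without 3M, by the interaction test of edgeR, for 2 named pathway genes. For Adora2a the effect with 3M minus that without was -3.91 on the log2 scale (adjusted p = 0.000242, below 0 in 5 of 5 mice). For Gpr35 it was 2.41 (adjusted p = 0.028, above 0 in 5 of 5 mice), a call lost without mouse 1, 2 or 4 (adjusted p = 0.0822, 0.135 and 0.143). Parp3, named after its value was seen, was at -0.64 (adjusted p = 0.0354, below 0 in 5 of 5 mice).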

How the results depend on the processing

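Of 378 recomputed differences of the 7 enzymes, 376 stayed within 1 SD of the value given. The exceptions were Nadk in LP 3M PIC against LP, 1.05 with TMM-scaled library sizes and 1.04 with DESeq2 size factors, against 0.93, whose SD over mice is 0.04. No enzyme difference or named pathway gene reversed its called direction under any alternative run. The balance of calls did turn with plain library totals: more pathway genes were then called lower than higher for LP 3M PIC against LP and for LP 3M against LP. Of 66 recomputed pathway counts 62 stayed within 1.5 times the reported one, and the other 4 were LP 3M against LP without mouse 1 and 3 counts of the interaction. With the mouse as a replicate block the interaction count was 5 and the others were 43 (LP 3M PIC against LP), 29 (LP 3M against LP), 30 (LP PIC against LP), 29 (LP 3M PIC against LP PIC) and 28 (LP 3M PIC against LP 3M). Leaving out 1 mouse, or the LP 3M library of mouse 5 alone, gave 36 to 42 calls for LP 3M PIC against LP, 16 to 27 for LP 3M against LP, 25 to 29 for LP PIC against LP, 19 to 26 for LP 3M PIC against LP PIC, 22 to 28 for LP 3M PIC against LP 3M and 1 to 4 for the interaction, with 1 left without mouse 1 or mouse 4. Fewer samples enter those fits. Named pathway genes kept their side of the threshold in 1892 of 1980 recomputed fits, lost it in 68 and gained it in 20. Depth limits Kmo, Qprt, Nnmt, Tdo2 and, in LP, Cd38 and Ido1.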
